A study of Mus musculus with 15 samples.

Results

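The enzymes that write, copy and erase DNA methylation, and the subunits of Polycomb repressive complex 2 (PRC2), were followed in OT-I CD8+ T cells, which carry a transgenic receptor for the ovalbumin peptide SIINFEKL. The set was a fixed list of 10 genes: Dnmt1, Dnmt3a, Uhrf1, Tet1, Tet2, Tet3, Ezh1, Ezh2, Suz12 and Eed. All 10 matched the deposited gene table, which holds 55536 annotated genes, and all 10 passed the filter on low counts that left 17366 genes for testing. RNA was sequenced from 15 libraries, 5 in each of 3 groups. Naive cells came from OT-I mice that received no transfer and no treatment. For the other groups, OT-I cells were transferred into wild-type C57BL/6J recipients. These were given antigen with control rat IgG (Ag) or antigen with agonist antibodies to OX40 (CD134) and 41BB (CD137) (Ag+Costim). The transferred cells were sorted from spleen and lymph nodes by CD8, the donor marker CD45.1 and the Vα2 and Vβ5 receptor chains. The labels place collection at day 4, and the study's methods give a somewhat shorter time. The OT-I mice were also deficient in Rag1 or Rag2 according to the study's methods, whereas the recipients had lymphocytes of their own, which this gate is meant to remove. Ages by group are not given in the labels. Transfer, time in a recipient and antigen all separate Ag from Naive and cannot be told apart.

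DNMT1 copies methylation onto the new strand after DNA replication, guided by UHRF1, which binds hemimethylated CpG sites and modified histone tails. DNMT3A adds methylation at new sites, and the TET enzymes oxidize methylcytosine as the opening step of its removal. PRC2 methylates lysine 27 of histone H3 through EZH1 or EZH2, held by SUZ12 and EED, and marks repressed genes. EZH2 is usually the subunit of dividing cells and EZH1 that of resting cells. In CD8+ T cells these systems are known for shaping effector and memory gene programmes.

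Total counts per library ranged from 4865952 (Ag 3) to 25280667 (Naive 3), and 16.9% of the sequenced reads of Ag 3 were counted. The counted share was 37.4% to 46.8% in the Naive libraries, Ag 1 and Ag 4, and 51.9% to 53.6% in Ag+Costim, Ag 2 and Ag 5. Markers of CD8+ T cells (Cd3d, Cd3e, Cd3g, Cd8a, Cd8b1, Trac, Lck and Zap70) summed to between 5323 and 9407 CPM (counts scaled to library size) in every library. Several libraries stood apart from their group. In the deposited FPKM table the columns of Ag 1 and Naive 5 were identical in all 22083 rows. Across 8688 genes, which are not independent replicates, that column followed the count column of Naive 5 (Pearson's r = 0.77) and not that of Ag 1 (r = -0.12). Summed CPM of 18 proliferation markers were 845 to 1225 in Naive 1, 3 and 4, 3131 in Naive 2 and 7659 in Naive 5. They were 1639 and 1668 in Ag 1 and Ag 4, 7410 to 9858 in Ag 2, 3 and 5, and 9586 to 11910 in Ag+Costim. B cell markers summed to 25.8 to 32.0 CPM in Naive and 27.9 to 51.5 in Ag+Costim, but to 181, 483 and 243 in Ag 1, 3 and 4, and erythroid markers reached 1311 CPM in Ag 3. Labels were kept as deposited, and results are also given without Ag 1 and Naive 5, a choice made after seeing the data.

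Promoter windows of the 10 genes are shown as a description of their sequence. RefSeq start sites on GRCm38.p6 gave 15 windows for the 10 genes, each 300 bases long, from 250 before a start to 50 from it. The word looked for is the E2F type, TTTCCCGC, TTTCGCGC, TTTGCCGC or TTTGGCGC, on either strand. It was present in 4 of the 10 genes, Dnmt1, Uhrf1, Ezh2 and Suz12 (2.605% of all 27025 genes), and in none of the windows of Dnmt3a, Tet1, Tet2, Tet3, Ezh1 or Eed. Per window it was in 4 of these 15 and in 2.265% of all 32851, and of the 8701 windows with at least 20 CpG dinucleotides 5.149% held it, beside 4 of 9 such windows here. In the windows below, printed 5′ to 3′ on the strand of the gene, capitals mark the word; the Ezh1 window has none and is shown beside that of Ezh2.
Dnmt1, chr9:20952574-20952873, minus strand: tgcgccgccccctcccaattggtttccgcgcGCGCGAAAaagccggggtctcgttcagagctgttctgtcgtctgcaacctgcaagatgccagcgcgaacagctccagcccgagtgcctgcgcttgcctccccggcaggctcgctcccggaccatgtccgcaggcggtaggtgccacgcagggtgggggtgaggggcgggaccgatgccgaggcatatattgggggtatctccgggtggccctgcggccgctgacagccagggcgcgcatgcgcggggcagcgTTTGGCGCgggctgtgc
Uhrf1, chr17:56304063-56304362, plus strand: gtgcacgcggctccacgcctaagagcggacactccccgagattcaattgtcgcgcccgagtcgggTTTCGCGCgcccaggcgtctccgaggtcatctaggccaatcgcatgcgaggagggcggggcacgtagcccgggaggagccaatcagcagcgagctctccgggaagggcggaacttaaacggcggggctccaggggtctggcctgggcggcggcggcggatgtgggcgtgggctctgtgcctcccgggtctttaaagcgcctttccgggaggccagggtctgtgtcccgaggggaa
Ezh2, chr6:47594981-47595280, minus strand: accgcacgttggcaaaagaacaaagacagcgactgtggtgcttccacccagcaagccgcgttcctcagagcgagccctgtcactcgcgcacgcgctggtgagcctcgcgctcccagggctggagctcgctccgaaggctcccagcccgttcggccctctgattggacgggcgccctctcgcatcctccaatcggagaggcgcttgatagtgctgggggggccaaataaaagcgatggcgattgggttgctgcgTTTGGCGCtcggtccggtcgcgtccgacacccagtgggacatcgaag
Suz12, chr11:79992856-79993155, plus strand: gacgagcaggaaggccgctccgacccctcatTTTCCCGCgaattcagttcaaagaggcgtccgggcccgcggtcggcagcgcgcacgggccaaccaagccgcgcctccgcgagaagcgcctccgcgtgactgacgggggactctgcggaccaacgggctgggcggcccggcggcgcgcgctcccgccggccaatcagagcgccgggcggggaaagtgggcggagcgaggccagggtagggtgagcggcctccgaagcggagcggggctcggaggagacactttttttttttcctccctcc
Ezh1, chr11:101226414-101226713, minus strand: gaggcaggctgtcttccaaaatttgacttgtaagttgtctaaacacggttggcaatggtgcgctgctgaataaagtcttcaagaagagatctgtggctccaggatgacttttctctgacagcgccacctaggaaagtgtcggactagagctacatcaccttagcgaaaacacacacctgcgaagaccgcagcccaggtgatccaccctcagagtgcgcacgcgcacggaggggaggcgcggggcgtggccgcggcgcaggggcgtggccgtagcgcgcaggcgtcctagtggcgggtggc
Dnmt1 held 2 words, starting 219 bases before the start site and at base 34 of the transcript, and no matches overlapped. The word began at base 4 of the Ezh2 transcript, 185 bases before the Uhrf1 start and 219 bases before that of Suz12. The Dnmt1, Ezh2, Suz12 and Ezh1 windows are placed on the start of the transcript that held most of the counts of each gene, whereas the Uhrf1 window is 992 bases downstream of the start of its main transcript and 35 bases from that of Uhrf1-204. These windows held 33 (Dnmt1), 33 (Uhrf1), 31 (Ezh2), 41 (Suz12) and 23 (Ezh1) CpG dinucleotides, against a median of 7 over all windows. The word CCAAT, also looked for on both strands, was in 6 of the 10 genes (41.06% of all genes) and in 8 of the 15 windows (37.41% of all windows). A match describes letters only, and binding was not measured. A link between a match and a change in level was not tested.

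Genes that maintain DNA methylation were highest in Ag+Costim. Dnmt1 (chromosome 9, 20907209 to 20959888) had 163, 188, 157, 140.3 and 495 CPM in Naive 1 to 5, 127, 366, 408, 147 and 316 in Ag 1 to 5, and 428, 468, 525, 523 and 611 in Ag+Costim 1 to 5. Naive 5 lay within the Ag+Costim range, and the Ag libraries were split between Ag 1 and 4 at Naive levels and the rest at 316 CPM or more. Dnmt1 was 2.23 times higher in Ag+Costim than in Naive (log2 fold change 1.16, SE 0.38, edgeR quasi-likelihood test, Benjamini-Hochberg FDR 0.0274). Its change from Naive to Ag was 0.25 (SE 0.38, FDR 0.665) and from Ag to Ag+Costim 0.91 (SE 0.38, FDR 0.149), although every Ag+Costim library was above every Ag library.

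Uhrf1 (chromosome 17, 56303321 to 56323486), which recruits DNMT1, had 32.7, 118, 22.2, 19.7 and 309.7 CPM in Naive, 42.8, 258, 286, 52.5 and 262 in Ag, and 295, 334, 364, 439.5 and 427 in Ag+Costim. Only Naive 5 reached the Ag+Costim range, and no Ag library did. The log2 fold change of 1.89 (SE 0.75) between Ag+Costim and Naive missed the threshold at an FDR of 0.0515. DESeq2 (1.88, SE 0.66, FDR 0.0122) and limma voom (3.54, SE 0.36, FDR 5.54e-07) called Uhrf1 here. EdgeR with lane as a term did not (2.11, SE 0.92, FDR 0.106). Without Ag 1 and Naive 5 the edgeR log2 fold change was 3.08 (SE 0.57, FDR 0.00111). That fit was chosen after seeing the data and leaves out the only Naive library in the Ag+Costim range.

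Dnmt3a (chromosome 12, 3806007 to 3914443), the methyltransferase for new sites, had 51.0, 48.3, 50.1, 61.5 and 60.2 CPM in Naive, 59.3, 53.3, 57.1, 65.1 and 58.5 in Ag, and 59.3, 78.2, 88.3, 65.1 and 61.9 in Ag+Costim. The groups overlapped in each comparison. With the smallest change of the 10 genes between these groups, Dnmt3a was 1.30 times higher in Ag+Costim than in Naive (log2 fold change 0.38, SE 0.12, edgeR FDR 0.0257), a call that was lost, among other settings, when library totals alone set the scale (0.22, SE 0.14, FDR 0.176). Of the rest of the family, Dnmt3b had 10.7 ± 1.46 CPM (SD, n = 5) in Ag+Costim and 12.8 ± 2.06 in Naive (log2 fold change -0.25, SE 0.14, FDR 0.145). Dnmt3l, a cofactor without catalytic activity, had 15 counts over all libraries and was not tested.

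The 3 TET genes were each lower in Ag+Costim than in Naive, with no overlap between the libraries of those groups. Tet1 (chromosome 10, 62804570 to 62908996) had 26.1, 15.1, 21.7, 23.8 and 6.58 CPM in Naive, 12.7, 0, 14.2, 14.1 and 1.31 in Ag, and 2.19, 2.19, 2.18, 2.60 and 1.95 in Ag+Costim. The 0 counts of Ag 2 allow up to 0.207 CPM, counting error only. Tet1 fell by 3.06 on the log2 scale (SE 0.84, edgeR FDR 0.0143), the largest change of the 10 genes between these groups, with 27 to 40 counts per Ag+Costim library.

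Tet2 (chromosome 3, 133463679 to 133545139) had 69.2, 42.6, 43.8, 61.3 and 37.5 CPM in Naive, 55.9, 24.5, 48.6, 56.3 and 12.6 in Ag, and 22.9, 24.4, 21.0, 17.2 and 23.9 in Ag+Costim. It fell by 1.22 on the log2 scale between Naive and Ag+Costim (SE 0.33, FDR 0.0143). Tet3 (chromosome 6, 83362373 to 83459084) had 129.7, 77.7, 93.0, 119 and 50.5 CPM in Naive, 99.1, 32.5, 48.6, 115 and 22.7 in Ag, and 34.2, 32.3, 35.4, 22.9 and 30.7 in Ag+Costim. It fell by 1.59 (SE 0.39, FDR 0.0100). In both genes Ag 5 was the lowest of all 15 libraries and Ag 1 and Ag 4 lay within the Naive range. From Ag to Ag+Costim the log2 fold changes were -1.90 (Tet1), -0.85 (Tet2) and -1.03 (Tet3), with an FDR of 0.156, 0.127 and 0.119.

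**Figure D1:**
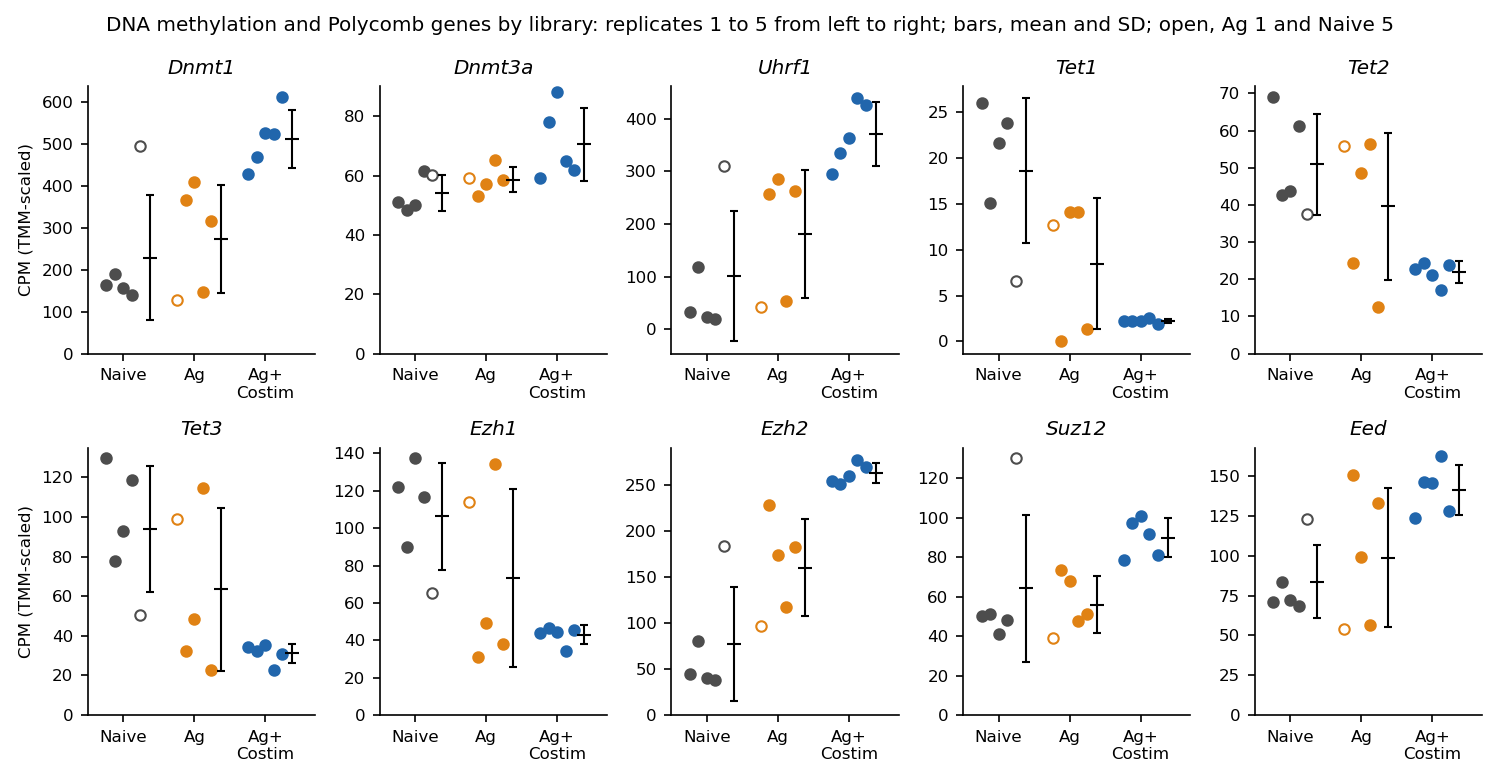
CPM (TMM-scaled, linear axes) of the 10 genes in each library of the 3 groups. Points stand for libraries, replicates 1 to 5 from left to right, bars for the mean and SD (n = 5), and open points for Ag 1 and Naive 5. Ag+Costim libraries lie close together, Ag libraries are spread more widely, and among the Naive libraries Naive 5 is the highest for Dnmt1, Uhrf1, Ezh2, Suz12 and Eed and the lowest for Tet1, Tet2, Tet3 and Ezh1.

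The catalytic subunits of PRC2 moved in opposite directions. Ezh2 (chromosome 6, 47530139 to 47595341) had 44.6, 80.7, 40.0, 37.8 and 183 CPM in Naive, 96.8, 228, 173, 118 and 182 in Ag, and 254, 251, 259.7, 277 and 269 in Ag+Costim. Ag+Costim lay above every other library. Ezh2 was 3.40 times higher in Ag+Costim than in Naive (log2 fold change 1.76, SE 0.40, FDR 0.00708), and 5.22 times higher without Naive 5 (2.38, SE 0.28, FDR 0.00014). Between Naive and Ag it had a log2 fold change of 1.05 (SE 0.39, FDR 0.103), the only one of the 10 genes with an unadjusted p under 0.05 there.

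Ezh1 (chromosome 11, 101191115 to 101226463) had 122, 89.7, 138, 117 and 65.5 CPM in Naive, 114, 30.9, 49.4, 134 and 37.7 in Ag, and 43.8, 46.4, 44.4, 34.1 and 45.7 in Ag+Costim. All Naive libraries were above all Ag+Costim libraries, and Ag fell on both sides. Ezh1 fell by 1.31 on the log2 scale from Naive to Ag+Costim (SE 0.36, FDR 0.0149). From Ag to Ag+Costim the log2 fold change was -0.77 (SE 0.36, FDR 0.184).

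The noncatalytic core subunits changed less between Naive and Ag+Costim. From Ag to Ag+Costim the log2 fold change of Suz12 was 0.69 (SE 0.28, edgeR FDR 0.145), near that of Ezh2 (0.71, SE 0.39, FDR 0.247). Eed (chromosome 7, 89954654 to 89980983), which reads the methylated histone tail, had 71.0, 83.8, 72.5, 68.5 and 123 CPM in Naive, 54.2, 151, 99.1, 56.7 and 133 in Ag, and 124, 146, 145, 163 and 128 in Ag+Costim. It was 1.68 times higher in Ag+Costim than in Naive (log2 fold change 0.75, SE 0.27, FDR 0.0361), and the lowest Ag+Costim library was just above Naive 5. This call was lost in 9 of the 10 fits that left out 1 Naive or Ag+Costim library and kept without Naive 5, and those of Dnmt1 and Dnmt3a were each lost in 5 of the 10. Suz12 (chromosome 11, 79993106 to 80034123), the scaffold subunit, had 50.3, 51.2, 40.9, 48.2 and 130.5 CPM in Naive, 39.1, 73.3, 68.2, 47.9 and 51.5 in Ag, and 78.4, 97.1, 101, 91.8 and 81.4 in Ag+Costim. Naive 5 was the highest of all libraries for Suz12. The log2 fold change of Suz12 between Ag+Costim and Naive was 0.49 (SE 0.28, FDR 0.161). It was 1.00 (SE 0.14, FDR 0.000249) without Ag 1 and Naive 5. That fit was chosen after seeing the data and leaves out this highest library.

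Levels were set side by side only per transcript length, as TPM from the deposited transcript counts and lengths. In Naive the highest mean TPM were those of Eed (75.8 ± 17.7, SD, n = 5), Dnmt1 (65.2 ± 39.0) and Ezh2 (50.1 ± 34.7), with overlapping spreads. Uhrf1 (44.9 ± 54.1), Ezh1 (44.6 ± 14.1), Suz12 (25.0 ± 12.7) and Dnmt3a (19.8 ± 7.67) followed. This order rests on Naive 5: over the other 4 Naive libraries Ezh1 (49.3 ± 10.7, SD, n = 4) came after Eed (67.9 ± 2.48) and before Dnmt1 (47.8 ± 2.58) and Ezh2 (35.2 ± 10.7), and Uhrf1 was at 21.9 ± 19.5. In Ag+Costim they were those of Uhrf1 (156 ± 25.7), Ezh2 (144 ± 6.54) and Dnmt1 (129.6 ± 17.6), again overlapping, followed by Eed (117 ± 8.57), Suz12 (31.1 ± 3.37), Dnmt3a (30.4 ± 12.0) and Ezh1 (16.0 ± 2.05). Tet1 was the lowest in each group, at 4.78 ± 2.86 TPM in Naive and 0.479 ± 0.171 in Ag+Costim. Per length, Tet2 and Tet3 had overlapping spreads, with 15.6 ± 4.72 and 19.1 ± 7.54 TPM in Naive. In Ag+Costim they had 5.33 ± 0.821 and 4.97 ± 0.802. Within libraries Tet3 was above Tet2 in Naive 1 to 4 and below it in Naive 5, and the order varied among Ag+Costim libraries.

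Ezh2 held 35.7%, 59.7%, 31.2%, 39.9% and 81.1% of the summed Ezh1 and Ezh2 TPM in Naive 1 to 5. Its share was 55.9%, 91.2%, 84.4%, 57.9% and 88.7% in Ag and 88.9% to 92.5% in Ag+Costim. Ezh1 was thus the more abundant in Naive 1, 3 and 4 only. The summed TPM of the 3 TET genes was 51.4, 27.7, 47.7, 51.5 and 19.2 in Naive, 37.6, 11.0, 23.3, 42.5 and 5.92 in Ag, and 8.18 to 11.8 in Ag+Costim. The ranges of Naive and Ag+Costim did not overlap for either quantity. These shares are given as a description, without a test.

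**Figure D2:**
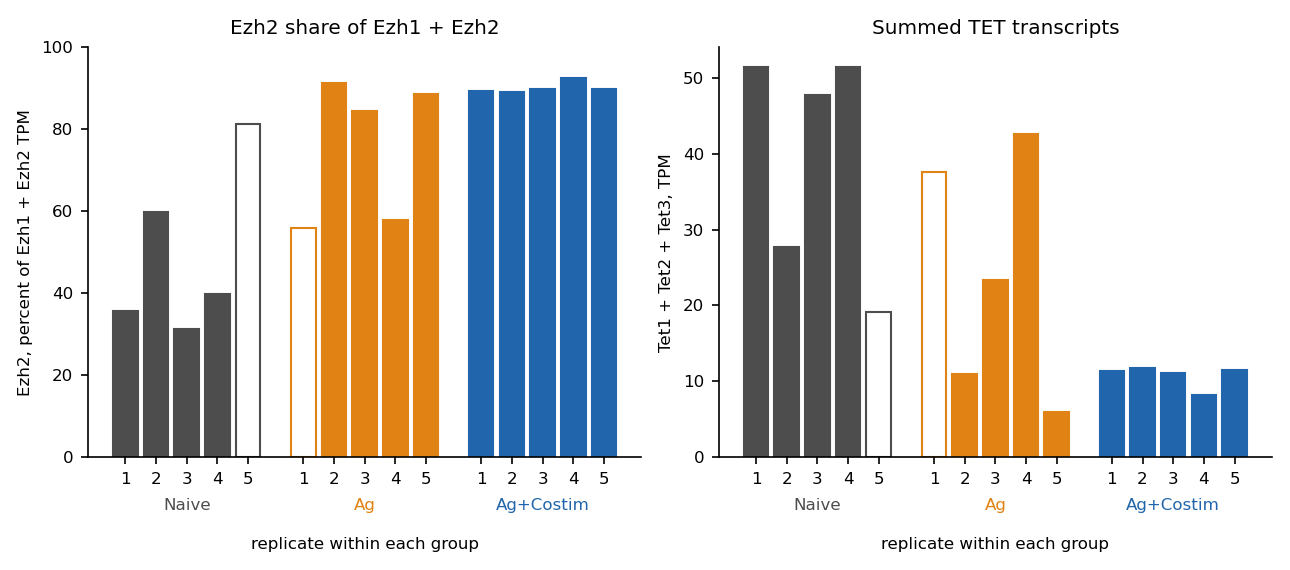
Left, Ezh2 as a percent of Ezh1 + Ezh2 TPM, and right, summed Tet1, Tet2 and Tet3 TPM, as bars for each library of the 3 groups (open bars, Ag 1 and Naive 5). The Ezh2 share is 88.9% to 92.5% in Ag+Costim and 31.2% to 81.1% in Naive, and summed TET TPM is 8.18 to 11.8 in Ag+Costim and 19.2 to 51.5 in Naive.

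To ask what antigen alone changed, Ag was compared with Naive. No gene of the 10 was called at an FDR under 0.05 by edgeR (0 of 10; 6.71% of all tested genes were called), and 1 passed an unadjusted p under 0.05 (28.7% of all genes). None separated the groups without overlap (3.85% of all genes). DESeq2 and limma voom each called 1 gene, Ezh2, beside 18.6% and 23.3% of all genes. Without Naive 5, 2 were called, Uhrf1 and Ezh2 (21.5% of all genes). Without Ag 1 and Naive 5, 3 were called, Dnmt1, Uhrf1 and Ezh2, all higher in Ag, where 31.2% of all genes were called. No lane held both groups, so that lane and group were separable only through the Ag+Costim libraries, and with lane as a term 0 of 10 were called (0.00% of all genes).

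To ask what costimulation added, Ag+Costim was compared with Ag. EdgeR called 0 of the 10 genes (0.0346% of all genes), and 7 passed an unadjusted p under 0.05 (26.8% of all genes). Of those, Dnmt1, Dnmt3a and Suz12 had positive log2 fold changes and Tet1, Tet2, Tet3 and Ezh1 negative ones. Dnmt1, Uhrf1, Ezh2 and Suz12 were higher in every Ag+Costim library than in any Ag library, 4 of 10, against 6.33% of all genes without overlap in either direction. DESeq2 also called 0 (14.6% of all genes). Limma voom, which gave Ag 2, Ag 5 and Naive 5 the lowest library weights, called 9, all but Dnmt3a, where 64.5% of all genes were called. Within lane 2, with 3 Ag+Costim libraries, 0 were called (0.00% of all genes), with log2 fold changes of 0.81 (Dnmt1), 0.89 (Uhrf1), 0.69 (Ezh2), -1.92 (Tet1) and -0.70 (Ezh1). Leaving out Ag 2 gave 3 calls (Tet1, Suz12 and Eed, beside 14.8% of all genes) and leaving out Ag 5 gave 2 (Tet2 and Tet3, beside 19.7%).

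Ag+Costim differed from Naive in 8 of the 10 genes, against 44.7% of all genes. Higher were Dnmt1, Dnmt3a, Ezh2 and Eed (4 of 10, against 21.0%), and lower were Tet1, Tet2, Tet3 and Ezh1 (4 of 10, against 23.6%). The groups did not overlap for 6 genes (45.0% of all genes). The median size of the log2 fold change, without its sign, was 1.26 over the 10 genes and 0.67 over all tested genes. With lane as a term only Ezh2 was called (5.43% of all genes). The log2 fold changes there were 1.31 (Dnmt1), -3.03 (Tet1), -1.31 (Tet2), -1.81 (Tet3), -1.41 (Ezh1), 1.82 (Ezh2), 0.79 (Eed) and 0.23 (Dnmt3a), with larger SEs, such as 0.58 for Tet3 and 0.49 for Dnmt1. Within lane 3, with 2 Ag+Costim libraries, 6 were called (34.7%): Tet1, Tet2, Tet3, Ezh1, Ezh2 and Eed. Leaving out 1 library gave 5 to 10 calls. Without Naive 1, 2 or 3 there were 5 (the TET genes, Ezh1 and Ezh2), where 21.9%, 35.9% and 27.9% of all genes were called. Without Naive 5 there were 10 (51.0% of all genes), and likewise without it and Ag 1 (52.4%).

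**Figure D3:**
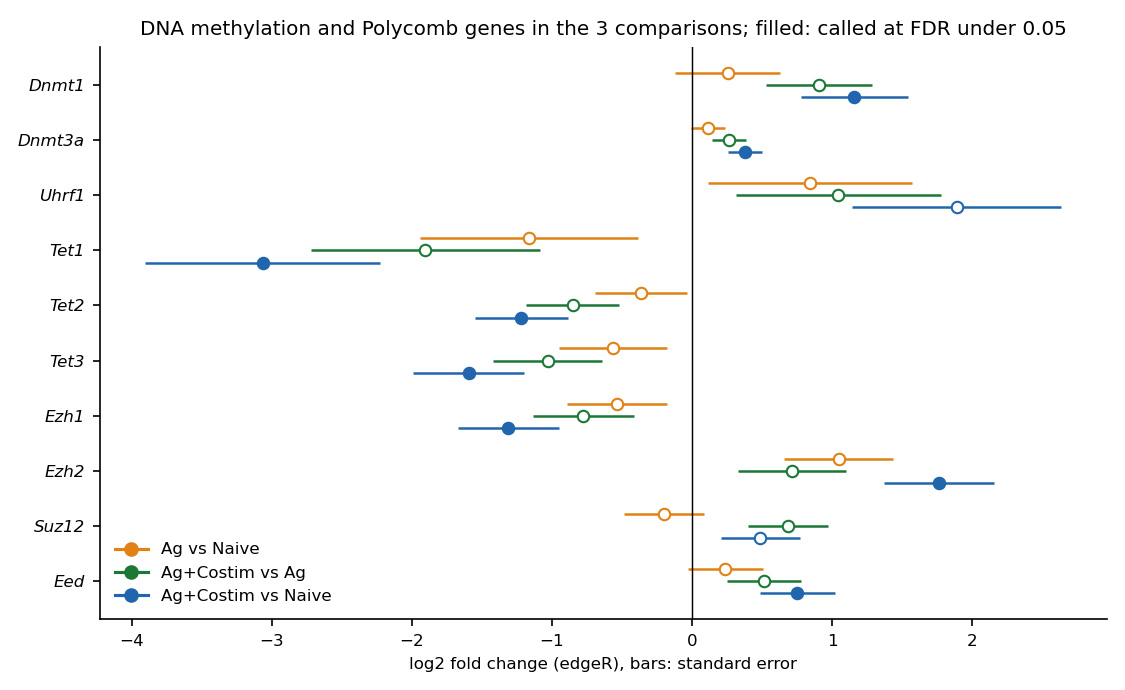
Log2 fold change (horizontal axis) with its standard error for the 10 genes in the 3 comparisons, from the edgeR fit to all 15 libraries. Filled points were called at an FDR under 0.05: none in Ag vs Naive or Ag+Costim vs Ag, and 8 in Ag+Costim vs Naive.

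Within Naive and Ag, several of the 10 genes had their extremes in the libraries with extreme summed proliferation markers. Naive 5, with the highest sum in Naive, had the highest Dnmt1, Uhrf1, Ezh2, Suz12 and Eed of that group and the lowest Tet1, Tet2, Tet3 and Ezh1. Ag 1 and Ag 4, with the lowest sums in Ag, had the lowest Dnmt1, Uhrf1, Ezh2, Suz12 and Eed and the highest Tet2, Tet3 and Ezh1. Dnmt3a was not at an extreme in Naive 5, and Ag 4 and Ag 1 had its highest values in Ag, 65.1 and 59.3 CPM. Because the marker sums fall into separate clusters, no correlation over the 15 libraries is given. Of the 18 markers 15 were called higher in Ag+Costim than in Naive (21.0% of all genes), and all 18 passed an unadjusted p under 0.05. In each of the other comparisons edgeR called 0, with 0 at an unadjusted p under 0.05. Of all genes, 6.71% were called in Ag vs Naive and 0.0346% in Ag+Costim vs Ag, and 28.7% and 26.8% passed the unadjusted p. Every Naive library and Ag 1, 3 and 4 had more Tet1, Tet2, Tet3 and Ezh1 CPM than any other library. These are also the libraries with the lower shares of counted reads, at most 46.8%. They had more genes with a count as well, 30152 to 44408, against 20949 to 25410 in the others. The parts of proliferating cells, of the counted share and of the number of genes counted in the results above were not tested. In bulk RNA, more cells of a kind and more RNA per cell cannot be told apart.

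**Figure D4:**
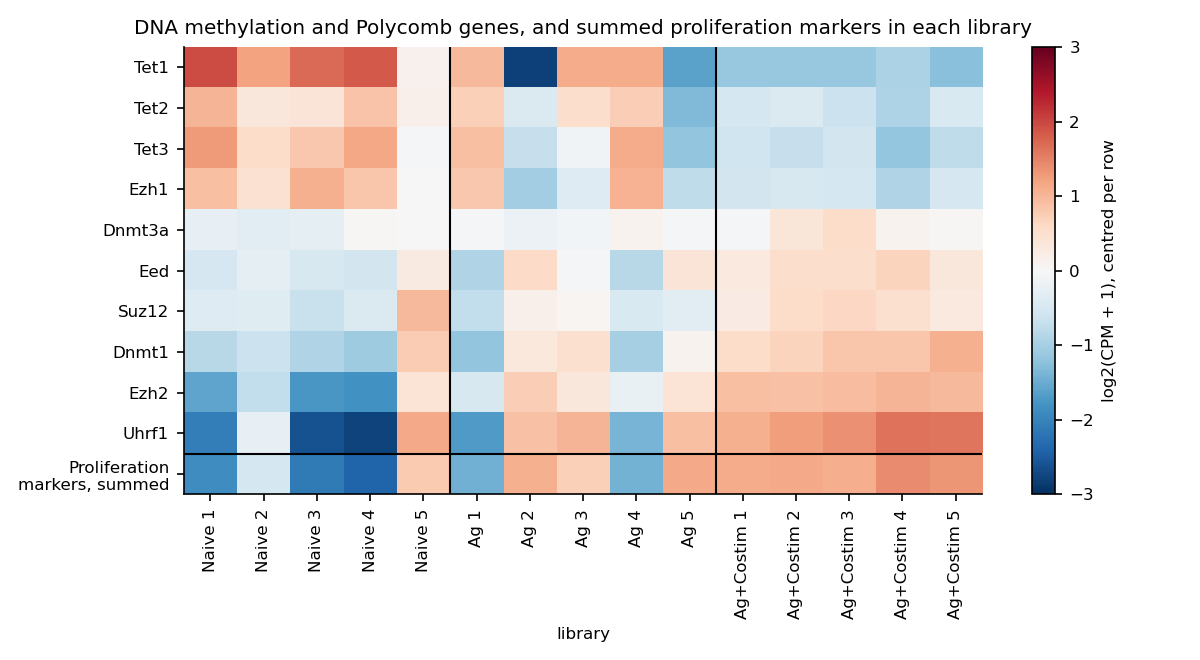
Log2(CPM + 1), centred on the row mean (colour), of the 10 genes and of the summed CPM of 18 proliferation markers (bottom row) in each of the 15 libraries. Uhrf1, Ezh2 and Dnmt1 are low in Naive 1, 3 and 4 and in Ag 1, as is the bottom row, while Tet1, Tet2, Tet3 and Ezh1 are high in those libraries.

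Markers of other cells also varied between libraries, although the sort gate should remove such cells. B cell sums were high in Ag 1, 3 and 4 but were 32.1 and 37.1 CPM in Ag 2 and 5. The highest erythroid sum was in Ag 3. The marker counts below stand beside 6.71% of all genes called in Ag vs Naive and 0.0346% in Ag+Costim vs Ag. In Ag+Costim vs Naive 21.0% of all genes were called higher and 23.6% lower. At an unadjusted p under 0.05, 28.7% passed in Ag vs Naive and 26.8% in Ag+Costim vs Ag. Of 7 tested B cell markers, 6 were called higher in Ag than in Naive, 0 in Ag+Costim vs Ag (6 at an unadjusted p under 0.05) and 2 higher in Ag+Costim than in Naive. Ag 1, 3 and 4, with the highest B cell sums, also held the highest Tet1 values in Ag (12.7 to 14.2 CPM). Of 7 tested myeloid markers 1 was called higher in each comparison with Naive, and 0 of 5 tested erythroid markers was called by edgeR in any comparison, with 0, 5 and 5 at an unadjusted p under 0.05. Of 3 tested CD4 T cell markers 1, Cd40lg, was called lower in Ag+Costim than in Naive (log2 fold change -2.62). Cd4 (0.26) and Zbtb7b (0.82) went the other way and were not called. Of 8 CD8 T cell markers 3 were called lower in Ag+Costim than in Naive. The part of these cells in the results was not tested.

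Other genes of DNA methylation and Polycomb were then counted from lists, whose counts stand beside 21.0% of all genes called higher and 23.6% called lower in Ag+Costim vs Naive. Of 42 list genes called there, 22 stayed called in each of the 10 fits that left out 1 library of those groups. Of 9 tested methyltransferase partners, 4 were higher and 2 lower in Ag+Costim than in Naive, with a median log2 fold change of 0.12 against -0.08 over all genes. The replication ligase Lig1 (2.08, SE 0.69, FDR 0.0282), the chromatin factor Cdca7 (1.82, SE 0.59, FDR 0.0262) and Hells, its remodelling partner (1.64, SE 0.63, FDR 0.0467), rose most. Without Naive 5 their log2 fold changes were 3.00, 2.56 and 2.56, and the call of Hells was lost in the other 9 fits that left out 1 library. Usp7, a deubiquitinase that binds DNMT1 and UHRF1, and Zbtb24 fell by 0.79 and 0.48 on the log2 scale. Of 8 methyl-CpG readers, 3 were called lower and 0 higher (median -0.21), a share of calls below that of all genes. Among them were Zbtb4, from 20.5 ± 8.42 to 1.54 ± 0.442 CPM (log2 fold change -3.73, SE 0.59, FDR 0.00195), and Zbtb38 (-1.86, SE 0.37, FDR 0.00434).

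Among 8 genes of demethylation repair and TET cofactor supply, 2 rose and 5 fell (median -0.89). Tdg, the glycosylase that removes TET products, rose from 38.1 ± 18.0 to 84.6 ± 6.98 CPM (log2 fold change 1.15, SE 0.30, FDR 0.0120), and Gadd45b rose by 0.70 (SE 0.25, FDR 0.0365). Gadd45a, the glycosylase Smug1 and Idh2, which makes the TET cosubstrate, had log2 fold changes of -1.75, -1.25 and -1.21. Idh2 was already lower in Ag than in Naive (-1.11, SE 0.20, FDR 0.0106), with means of 35.3 ± 5.54 CPM in Ag, 32.9 ± 3.10 in Ag+Costim and 76.3 ± 23.1 in Naive. Of 5 methyl donor genes 1 rose, a share near that of all genes, the folate enzyme Mthfd1 (1.28, SE 0.42, FDR 0.0257).

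Among 10 accessory subunits of PRC2, 4 rose and 4 fell (median 0.15). Phf19, which anchors PRC2 to chromatin, rose from 7.95 ± 8.68 to 28.4 ± 2.40 CPM (1.84, SE 0.61, FDR 0.0274). Without Naive 5 its Naive mean was 4.34 ± 3.68 CPM (SD, n = 4) and the log2 fold change 2.74 (SE 0.52, FDR 0.00167). The histone-binding subunits Rbbp7 and Rbbp4 rose by 1.14 and 0.90. Phf1, a paralog of Phf19, fell from 54.8 ± 23.5 to 11.5 ± 3.32 CPM (-2.25, SE 0.50, FDR 0.00666), and Lcor and Lcorl fell by 1.43 and 1.25. Of 23 subunits of PRC1, which ubiquitinates histone H2A, 2 rose and 12 fell (median -0.32). The largest decreases were those of Rybp (-1.42), Bcorl1 (-1.39) and Scmh1 (-1.34), and Cbx6 (0.44) and L3mbtl2 (0.49) rose. Pcgf3 was called already between Naive and Ag (-0.64, FDR 0.0358).

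Of 5 erasers of Polycomb marks, 1 rose and 2 fell (median -0.34). The demethylase Kdm6b fell from 11.3 ± 5.37 to 2.32 ± 0.316 CPM (-2.28, SE 0.54, FDR 0.00874) and Asxl2 fell by 1.03, while Asxl1 rose by 0.32. In Ag+Costim vs Ag no gene of these lists was called at an FDR under 0.05 (0 of 68 tested, against 0.0346% of all genes). An unadjusted p under 0.05 was passed by 13 of the 68, against 26.8% of all genes.

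**Figure D5:**
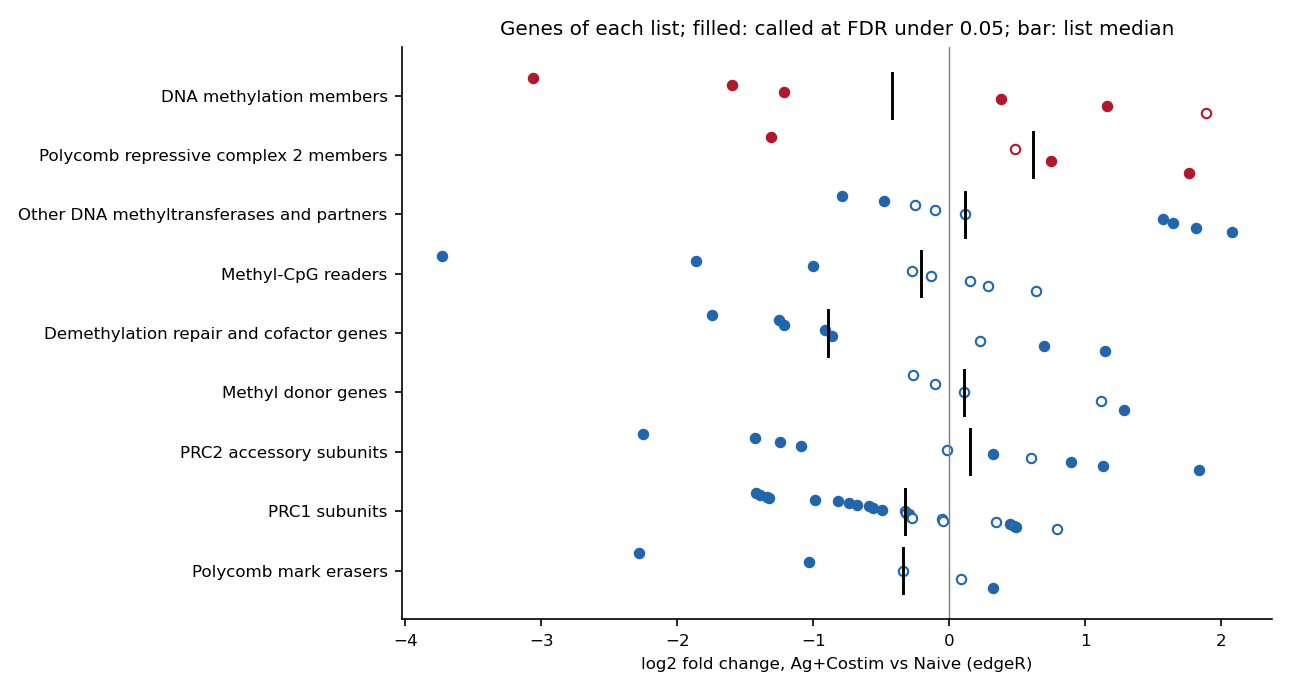
Log2 fold change between Ag+Costim and Naive (horizontal axis) of each tested gene in 9 lists, with filled points called at an FDR under 0.05 and a bar at the list median. The 10 genes described first are in red, and the lists hold genes on both sides of 0.

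Transcript usage, meaning how counts divide among the transcripts of 1 gene, was tested for all 10 genes, and edgeR called 0 in every comparison (against 1.27% of 7501 genes in Ag vs Naive, 1.63% of them in Ag+Costim vs Ag, 2.01% for Ag+Costim vs Naive). At an unadjusted p under 0.05 there was 1, Tet3 in Ag+Costim vs Naive (FDR 0.151), and leaving out Ag+Costim 1 gave 1 call, Tet3, in each comparison with Ag+Costim. A single protein-coding transcript held most counts of several genes: Dnmt1-203 held 91.1% to 94.3% in every library, Ezh1-202 86.0% to 96.8% and Eed-201 82.6% to 95.1%. In Dnmt3a the shares varied widely. The long transcript Dnmt3a-201 held 72.5% ± 19.3 (SD, n = 5) in Naive and 53.8% ± 21.0 in Ag+Costim. Dnmt3a-205, which starts within the gene at position 3891728, held 16.0% ± 14.6 and 38.8% ± 22.2, with 0% in Naive 1, Naive 2, Ag 3 and Ag+Costim 1. Ezh2-201 held 59.6% ± 35.0 in Naive and 80.6% ± 4.28 in Ag+Costim. Its Naive median was 75.2%, with 0% in Naive 4. Tet2-201, Tet3-202 and Suz12-201 led in each group, with 89.1%, 79.4% and 88.6% on average in Ag+Costim. Uhrf1-201 held 54.3% ± 13.2 in Ag+Costim, 56.6% ± 16.2 in Ag and 76.3% ± 9.63 in Naive. Reads of 50 bases separate overlapping transcripts poorly, the deposited counts are estimates, and counting did not use strand. Genes that overlap the 10 held few counts, the most being 648 over all libraries for 5430434F05Rik within Tet3.

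For each gene, the 3 tested genes of at least 5 CPM with the most similar profile over the 15 libraries were found from the root mean square (RMS) difference of centred log2(CPM + 1). For Uhrf1 they were Lig1 (RMS 0.171), Cip2a (0.179) and Exo1 (0.190), and for Dnmt1 Ipo5 (0.167), Paxip1 (0.169) and Anp32e (0.170). For Ezh2 they were Pcyox1l (0.187), Axl (0.211) and E2f2 (0.227), for Suz12 Hnrnpd (0.156), Srsf1 (0.184) and Khsrp (0.186), and for Eed BC085271 (0.0713), Set (0.0900) and Gm5380 (0.0999). Those of Ezh1 included Gm45552 (0.158) and Mbnl2 (0.179). Tet1 was nearest to Patj (0.329), Arhgef11 (0.372) and Cacna2d4 (0.387), Tet2 to Xpr1 (0.135), Fam193a (0.140) and Apc (0.149), and Tet3 to Mycbp2 (0.133), Scaper (0.142) and Plcb2 (0.166). Dnmt3a was nearest to Eif2ak2 (0.147), Ccar2 (0.153) and Unc13d (0.155). None of these was itself one of the 10 genes.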

How the data were processed

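RNA of 15 libraries was made with SMART-Seq v4 and Nextera XT, without strand, and sequenced as single reads of 50 bases. The study's methods give longer reads, single or paired. The submitters' processing notes name HISAT2 2.1.0, SAMtools 1.9, StringTie 2.1.0, R 4.0.5, DESeq2 1.30.1 and mm10. The authors deposited estimated gene and transcript counts (expected counts, all whole numbers) and an FPKM table, used here only to compare library columns. Of 81881 gene entries 55536 matched GENCODE M21. Entries with a number only (0.0818% of counts) did not enter library sizes or fits.

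Counts were fitted over all 15 libraries with edgeR 4.0.16 (R 4.3.3; filterByExpr, TMM, robust quasi-likelihood test, Benjamini-Hochberg over 17366 genes, FDR threshold 0.05). Transcript usage was tested with diffSpliceDGE over 7501 genes. DESeq2 1.42.0 and limma 3.58.1 were alternatives. CPM is TMM-scaled, and TPM was computed from transcript counts and lengths. Checked on simulated data, the gene fit recovered most of the changes set, whereas the usage fit made more false calls than its threshold allows. For the gene fit, the changes set were larger than those of the 10 genes between Ag and Ag+Costim. They were set only in genes with enough counts. The check therefore cannot show how often smaller changes would be called. The labels do not state separate animals per library. The study's legends describe each as an individual biological replicate and, for its splicing analysis, count mice per group. The p-values measure the spread between these samples. All 10 genes are named, and of each further list up to 3 called genes in each direction with the largest change, any gene called in another comparison, and Dnmt3b and Dnmt3l. Some genes that this rule names are not reported here. The genes and lists were chosen with earlier results of these data known. Promoters came from RefSeq (GRCm38.p6) and matched all 10 genes.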

Additional observations from a re-analysis of the deposited data

Results flagged for a closer look

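Among 33 groups of 5 libraries examined, a single library lay far from the other 4 (Dixon's test, 95% level, critical value 0.71) in 5, and chance alone flags about 1 group in 20. In Naive, library 5 was far above the others for Dnmt1 (494.9 CPM, nearest 188), Suz12 (130.5 CPM, nearest 51.2) and Eed (123 CPM, nearest 83.8). This is the library whose FPKM column equals that of Ag 1. In Ag+Costim, library 4 was the lowest for Ezh1 (34.1 CPM, nearest 43.8) and the highest for the Ezh2 share of Ezh1 and Ezh2 TPM (92.5%, nearest 89.7%).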

How the results depend on the processing

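Over the log2 fold changes of the 10 genes in the alternatives, 550 kept their direction and side of the threshold, 33 passed it newly, 32 no longer passed it and 5 reversed. In Ag vs Naive, where edgeR called 0 genes, DESeq2, limma voom and the fit with the replicate block called 1 each, and the fit without Ag 1 and Naive 5, chosen after seeing the data, called 3. Leaving out 1 library gave 0 to 2. In Ag+Costim vs Ag, limma voom called 9, and leaving out 1 library gave 0 to 3. In Ag+Costim vs Naive, the lane term left 1 call of 8, with fold changes of the other called genes kept in direction (Tet1 -3.03, Tet3 -1.81, Dnmt1 1.31, Ezh1 -1.41) and larger SEs, and leaving out 1 library gave 5 to 10. Usage without a filter gave 1, 1 and 2 calls in the 3 comparisons, and leaving out 1 library gave 0 to 0, 0 to 1 and 0 to 1. All 5 reversals were in Ag vs Naive: Dnmt1 (-0.036) and Eed (-0.26) with limma voom, Dnmt3a (-0.13) with the lane term, and Suz12 (otherwise -0.20) without Naive 5 (0.24) and without Ag 1 and Naive 5 (0.32). Leaving out single libraries moved Suz12 between -0.35 and 0.24. The cause was not tested.

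Replicate numbers did not pair the libraries: same-numbered libraries correlated between -0.32 and 0.47, and not every library was most like its own number. The replicate block gave 1, 0 and 9 calls in the 3 comparisons. Tet1 had as few as 0 counts in a library.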
